A study of Mus musculus with 6 samples.

Results

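The comparison described here sets elongating spermatids that received an shRNA vector against Caf1 (shCaf1:GFP) beside elongating spermatids that received the empty control vector (pSilencer:GFP). Its members were chosen by vector label: 2 shCaf1 arrays and 2 control arrays, which are 4 of the 6 arrays of the series. The other 2 arrays carry shMiwi:GFP, an shRNA against the PIWI gene Miwi. All 3 groups shared the same host and handling: ICR mice (an outbred strain) labelled wildtype and adult, males whose testes were transduced with lentivirus at 5 weeks of age, and GFP+ elongating spermatids sorted from total germ cells 1 week later. The labels call the 2 arrays of each group biological replicates, and do not say whether animals were pooled. The sort was by GFP, so it aimed at cells that took up or inherited vector, not at a whole tubule. Markers of Sertoli and Leydig cells still ranked high on control 2 and the shCaf1 arrays, as given below. The purity of the sort was not tested. Total RNA was extracted with Trizol, amplified and biotin-labelled with a kit that primes from the poly(A) tail, and hybridized to a mouse expression array of 45101 probe sets. The number of arrays per group, 2, limits the precision of every comparison, and p-values measure only the spread between these arrays.

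Caf1 is taken here to be Cnot7, one of the catalytic subunits of the CCR4-NOT complex. CCR4-NOT shortens the poly(A) tails of mRNAs, which is usually the first step of their decay; Cnot7 and its paralog Cnot8 belong to one nuclease family, Cnot6 and Cnot6l to another, and the remaining subunits form the scaffold or bind the proteins that bring the complex to a transcript. In spermiogenesis transcription stops while the nucleus condenses, so elongating spermatids live on stored mRNAs that are later removed, and MIWI with its piRNAs has been described as recruiting CAF1 to such mRNAs in these cells. The labelling kit primes from the poly(A) tail, so a change in tail length and a change in mRNA amount cannot be told apart on these arrays. In the same way, fewer cells of a type and less RNA per cell cannot be told apart.

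Before any gene is compared, the controls differed from the other arrays in several measures. The deposited signals were scaled to 1 trimmed mean, 500 on every array, yet the 18 spiked hybridization-control probe sets read on control 1 82.3 times, and on control 2 16.2 times, their average over the 4 shRNA arrays, against 1.10 and 1.20 on the shCaf1 arrays. The 100 brightest probe sets held 52.6% of all signal on control 1 and 29.5% on control 2, against 6.88% and 7.25% in shCaf1. The ratio of the 3′ to the 5′ probe set, a sign of RNA integrity, was 0.691 for Actb on control 1, 14.5 on control 2, and 2.87 and 4.69 in shCaf1; for Gapdh it was 0.723, 5.105, 1.06 and 1.73. Control 2 had the highest of these ratios for both genes, and their part in the results was not tested. Signals are therefore read here as percentile ranks within an array, over 45037 probe sets, where 100 is the brightest. In these ranks the 2 shCaf1 arrays correlated at r = 0.938 across probe sets and the 2 controls at 0.412. The shCaf1 arrays correlated with control 1 at 0.254 to 0.258 and with control 2 at 0.532 to 0.536. With the shMiwi arrays they correlated at 0.936 to 0.941, as closely as with each other. These correlations are over probe sets, which are not replicates, and array, RNA and vector cannot be told apart in them. Control 1 also went against its cell-type label: of 39 elongating-spermatid markers, 4 reached the 90th percentile on control 1, 28 on control 2, and 35 and 34 on the shCaf1 arrays. The protamine gene Prm2, which packages sperm DNA, ranked at 29.1 on control 1 and at 100 on control 2 and on both shCaf1 arrays. The transition protein gene Tnp2 ranked at 1.5 on control 1, 99.7 on control 2, and 99.9 and 99.8 in shCaf1. For this reason each control is read separately, and a difference is kept only when both shCaf1 arrays lie at least 25 percentile points beyond both controls. The distance between the nearest shCaf1 and control arrays is called the gap.

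Cnot7 itself ranked lower in both shCaf1 arrays than in both controls on all 3 of its probe sets. The brightest of them, called A here, ranked at 100 and 99.9 in the controls and at 95.1 and 95.8 in shCaf1. The other pair, B and C, lay further from the controls: C ranked at 100 and 98.2 in the controls and at 66.7 and 67.0 in shCaf1, and B at 100 and 98.3 against 73.3 and 72.8. The groups did not overlap on any of these probe sets, and C alone passed the size rule, with a gap of 31.1 points; B lay just outside it at 24.99. The shCaf1 mean was below the control mean, with differences of -4.5 ± 0.6 (SE) for A, -26.1 ± 2.5 for B and -32.2 ± 3.5 percentile points for C, and none of the differences passed limma's test with Benjamini-Hochberg adjustment, in which all 3 had an adjusted p of 0.0708.

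The shMiwi arrays, whose vector targets another gene, also ranked Cnot7 below both controls. They ranked A at 96.2 and 96.6, B at 78.9 and 78.6 and C at 67.9 and 71.8. Against shMiwi the shCaf1 mean differed by -1.0 (adjusted p = 0.204) for A, -5.7 (adjusted p = 0.0681) for B and -3.0 (adjusted p = 0.477) percentile points for C in limma, so no probe set passed that test. On control 1 probe set A was also the brightest on the array, at a signal of 2003570 against 188877 on control 2 and 3633 and 4330 in shCaf1. The part of the control arrays' brightness in this difference was not tested.

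The paralog Cnot8 lay on the opposite side. Its brighter probe set ranked at 35.2 and 58.1 in the controls and at 86.1 and 85.3 in shCaf1, a gap of 27.2 points, and limma gave a difference of 39.0 ± 11.4 (SE) with an adjusted p of 0.118. The shMiwi arrays held it at 86.0 and 85.6, within 1 percentile point of shCaf1. The second Cnot8 probe set, at 35.6 and 67.5 in the controls and 75.4 and 71.5 in shCaf1, had a gap of 4.0 points. Of the 4 catalytic subunits 1, Cnot8, thus ranked above both controls and none below on its brightest probe set, against 8.33% of all 18194 genes above and 6.51% below.

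**Figure D1:**
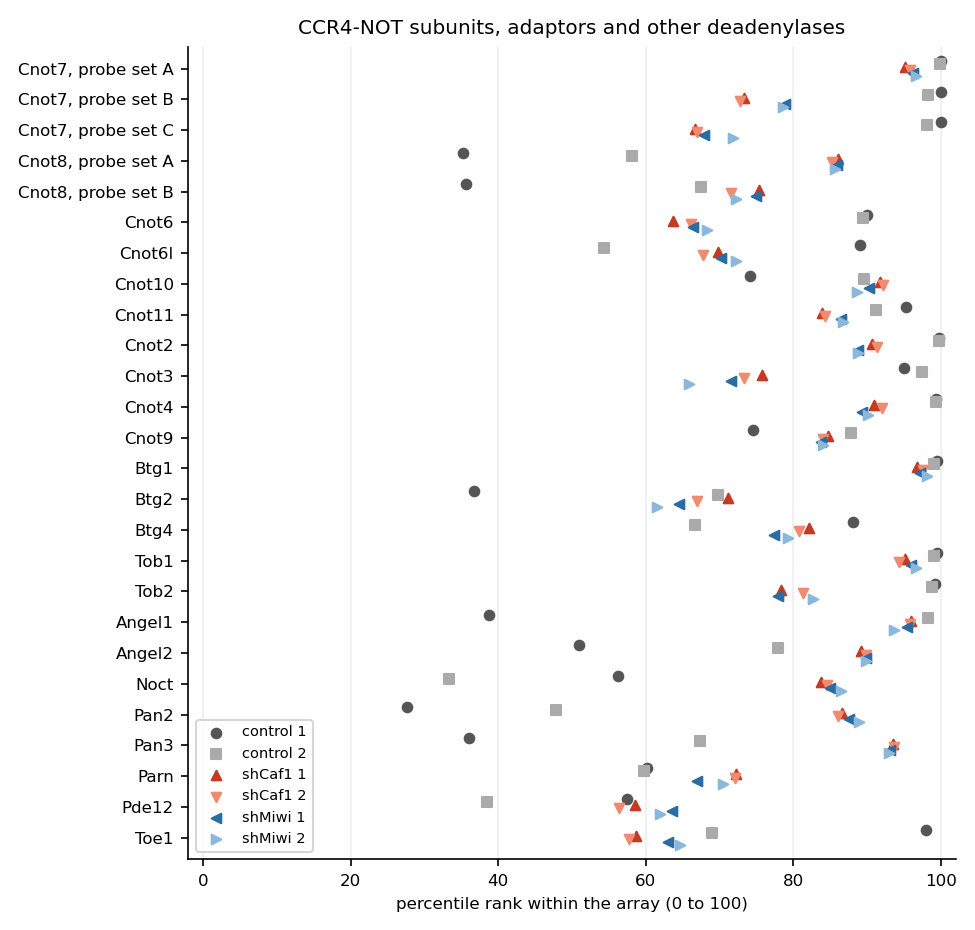
Percentile rank within each array (0 to 100, x axis) of Cnot7 and Cnot8 by probe set, and of the other CCR4-NOT subunits, Tob and Btg adaptors and other deadenylases by their brightest probe set (1 row each); circles and squares are the 2 controls, red triangles the shCaf1 arrays and blue triangles the shMiwi arrays. Cnot7 ranked at 98.2 or more in the controls and at 66.7 to 95.8 in shCaf1, while Cnot8, Pan2, Pan3 and Noct lay to the right of both controls.

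Cnot6, a catalytic subunit of the other nuclease family, gave opposite directions by probe set. Its brightest ranked at 90 and 89.4 in the controls and at 63.7 and 66.2 in shCaf1, while 2 others lay above both controls, at 47.5 and 51.0 against 86.8 and 86.8 and at 16.5 and 21.6 against 85.0 and 85.6, and the last, at 32.6 and 70.7 against 86.6 and 85.6, had a gap of 14.9 points. Some other parts of the complex ranked below both controls on their brightest probe set without reaching 25 points. Cnot3, a scaffold-associated subunit, ranked at 95.0 and 97.5 against 75.7 and 73.3, Cnot2 at 99.7 and 99.7 against 90.7 and 91.4, and the E3 ligase subunit Cnot4 at 99.4 and 99.4 against 90.9 and 92.1. Each of these 3 had non-overlapping groups on this scale, with an adjusted p of 0.0708 in limma. Of the 5 Cnot4 probe sets, another ranked above both controls, at 71.7 and 34.6 against 85.2 and 82.8, a gap of 11.1 points. Cnot6l did not separate, since the controls of its brightest probe set, at 89.1 and 54.3, lay on either side of shCaf1 at 69.8 and 67.8. On the scale of the spiked controls the differences of the brightest probe sets of Cnot6, Cnot6l, Cnot3, Cnot2 and Cnot4 turned positive. None of the 6 non-catalytic subunits on the array lay beyond both controls by that probe set, and their median percentile was 95.1 and 94.3 in the controls and 87.7 and 87.9 in shCaf1.

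Among the proteins that bring the complex to mRNAs, none of 5 Tob and Btg adaptors and none of 14 recruiting factors lay beyond both controls on its brightest probe set. Tob1, an antiproliferative adaptor that bridges CCR4-NOT and poly(A)-binding protein, ranked at 99.5 and 99.1 in the controls and at 95.1 and 94.4 in shCaf1, and Btg1, of the same family, at 99.5 and 99.1 against 96.8 and 97.6. Rc3h2, a roquin-family RNA-binding protein, ranked at 98.9 and 96.9 against 86.2 and 86.8. On these probe sets, the brightest of each gene, the 3 genes were lower in rank in both shCaf1 arrays but turned higher on the scale of the spiked controls. Tnrc6a, the GW182 protein of the microRNA pathway, has no single direction, since its 9 probe sets disagreed. Its 2 brightest ranked at 99.4 and 97.9 against 92.2 and 92.0 and at 97.4 and 97.0 against 88.7 and 90.4, while 2 others lay above both controls, at 42.0 and 40.5 against 82.8 and 81.3 and at 48.1 and 29.5 against 75.1 and 74.0. The remaining 5 lay beyond neither by 25 points: 85.0 and 33.3 against 85.8 and 87.0, 2.4 and 77.1 against 83.6 and 85.2, 51.5 and 47.5 against 48.4 and 34.3, 69.4 and 88.3 against 73.0 and 75.5, and 9.4 and 25.3 against 47.7 and 23.6.

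Of 8 deadenylases outside CCR4-NOT, 3 (37.5%, against 8.33% of all genes) ranked above both controls and none below (6.51% of all genes). Of all probe sets at percentile 80 to 90 in shCaf1, where the medians of this list lay, 22.3% ranked above both controls and 0.0% below. Pan2, the catalytic subunit of the PAN2-PAN3 deadenylase that trims long tails, ranked at 27.6 and 47.8 in the controls and at 86.6 and 86.1 in shCaf1. Its partner Pan3 ranked at 36.1 and 67.4 against 93.5 and 93.7 on the brightest of its 4 probe sets, and the others disagreed. They ranked at 1.4 and 46.5 against 92.9 and 94.6, and at 53.5 and 8.9 against 31.6 and 38.6. The last ranked below both controls, at 91.9 and 81.4 against 61.1 and 38.0, a gap of 20.3 points. Noct, the nocturnin gene, whose family resembles that of Cnot6, ranked at 56.3 and 33.3 against 83.7 and 84.6. On the brightest probe set both shCaf1 arrays were higher for each of these genes. The medians of the 8 genes were 53.6 and 63.6 in the controls and 85.1 and 85.3 in shCaf1. The adjusted p in limma lay between 0.0826 and 0.135 for the 3 genes, and the shMiwi arrays ranked them within 3 points of shCaf1.

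Of 17 exosome and SKI genes 4 (23.5%, against 8.33% of all genes) ranked above both controls and none below: the nuclease gene Dis3 (21.9 and 69.3 in the controls, 96.9 and 96.7 in shCaf1), its relatives Dis3l (43.8 and 32.4, then 93.1 and 93.8) and Dis3l2 (18.8 and 31.2, then 62.2 and 65.6), and the ring subunit Exosc9 (30.5 and 8.7, then 80.0 and 82.8). The medians of this list, 73.4 and 85.9 against 85.5 and 85.8, lay close to each other for control 2 and shCaf1. Of all probe sets at percentile 80 to 90 in shCaf1, 22.3% ranked above both controls, near the share of this list, and 0.0% below. Decapping and 5′ to 3′ decay genes gave shares near those of all genes, with 2 of 22 (9.09%) above both controls and 1 (4.55%) below, against 8.33% and 6.51%. Pnrc1 (10.5 and 29.5, then 86.0 and 86.3) and Lsm14b (3.8 and 65.5, then 91.1 and 90.6) ranked above both controls, and Patl2, a PAT1-family protein, below, at 93.7 and 80.7 against 42.5 and 39.5.

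Among 22 poly(A) polymerases and tail-binding proteins, 4 (18.2%) ranked above both controls and none below, against 8.33% and 6.51% of all genes. The shCaf1 medians of this list were 90.7 and 91.2. All probe sets at shCaf1 percentiles 80 to 90 and 90 to 100 gave similar shares, 22.3% and 15.2% above both controls and 0.0% below. Cpeb1, which controls cytoplasmic polyadenylation of stored mRNAs, ranked at 13.2 and 9.9 in the controls and at 71.7 and 73.2 in shCaf1. Tent2, a cytoplasmic poly(A) polymerase also known as GLD2, ranked at 44.6 and 40.5 against 80.8 and 81.6. Paip2b, which restrains poly(A)-binding protein, ranked at 25.8 and 34.7 against 93.3 and 92.9, and the testis gene Pabpc6 at 3.5 and 54.6 against 94.3 and 94.2. The ubiquitous Pabpc1 was near the top on all 4 arrays, at 99.5, 98.6, 100 and 100.

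Across the whole array, 28527 probe sets passed a filter on the mean percentile (40 or more over the 4 arrays). Of these, 3110 (10.9%) ranked at least 25 points above both controls and 2303 (8.07%) at least 25 points below both. Many differences from 1 control were not seen against the other. Against control 1 alone 8374 probe sets (29.4%) ranked higher and 5421 (19.0%) lower; against control 2 alone the counts were 5664 (19.9%) and 3466 (12.1%). Of the probe sets higher than control 1, 37.1% were also higher than control 2, and of those higher than control 2, 54.9% were also higher than control 1; for lower probe sets the shares were 42.5% and 66.4%. A further 48 probe sets (0.168%) ranked above control 1 and below control 2, and 156 (0.547%) the other way.

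The disagreement between the controls was as wide as many of these differences. Control 1 ranked 4831 probe sets (16.9%) at least 25 points above control 2 and control 2 ranked 6733 (23.6%) above control 1, while the shCaf1 arrays differed by that much on 624 (2.19%). In limma on the percentile ranks no probe set passed an adjusted p of 0.05 in either direction (0.0%); the smallest adjusted p was 0.0708, and 9168 probe sets (32.1%) had an unadjusted p under 0.05. The median standard error was 10.3 percentile points against a median absolute difference of 20.4. Fitted with the shMiwi arrays as well, the same test passed 7495 probe sets, and on log2 signals 7307, and on the ranks it passed 20817 without control 1 and 22681 without control 2. The scale of the spiked controls passed 22731. The count of 0 therefore holds for percentile ranks of these 4 arrays and depends on both choices.

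The higher and lower sets differed in where they lay on each array. The higher set had a median percentile of 26.6 and 30.4 in the controls and 81.1 and 81.4 in shCaf1; the lower set had 84.3 and 75.9 against 34.6 and 33.9. All tested probe sets had 64.2 and 67.3 against 68.2 and 68.2. The shMiwi arrays lay near shCaf1, with medians of 81.9 and 82.9 for the higher set and 35.8 and 34.9 for the lower set. Most of this distance from the controls was thus shared by both shRNA groups. In the deposited signal the lower set went from medians of 986 and 522 to 38 and 35, so the genes that ranked lower in shCaf1 were dim there. On the scale of the spiked controls 97.5% of all tested probe sets were higher in shCaf1, with a median of 2.95 (log2) above control. All 3110 higher probe sets were higher on it too, and 1692 of the 2303 lower ones (73.5%) turned positive. On the deposited log2 scale, where the median of all tested probe sets was -0.57, 41.4% of them were higher and 58.6% lower. Every probe set of both sets kept its direction there, on the same signals that gave the ranks. The share above both controls also varied with the level in shCaf1: of all probe sets with a mean shCaf1 percentile from 70 to 80, 80 to 90 and 90 to 100 it was 20.4%, 22.3% and 15.2%, and below 30 at most 0.0366% per band of 10, since a gap of 25 points needs room below. The share below both controls was 0.0667% from 70 to 80 and 0.0% in both bands from 80 to 100, since a downward gap needs room above. Lists of genes with high shCaf1 ranks are read with these shares in view, and an absence of lower members in them is largely fixed by their level.

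**Figure D2:**
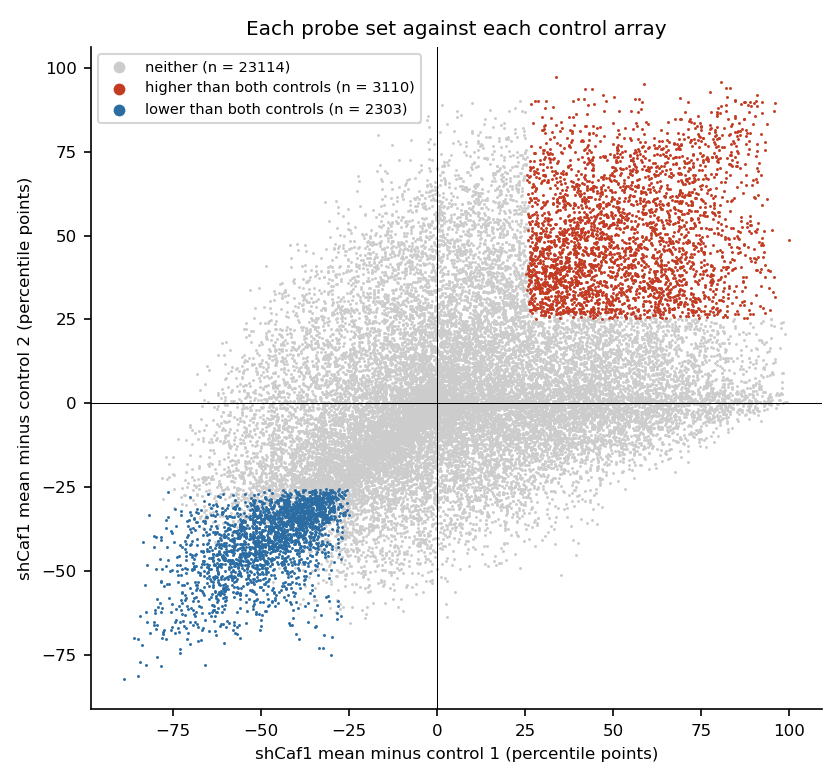
Each point is 1 of 28527 probe sets: the mean percentile rank of the shCaf1 arrays minus that of control 1 (x axis) and minus that of control 2 (y axis), in percentile points. Red points ranked at least 25 points above both controls (n = 3110), blue points at least 25 points below both (n = 2303), and the band along the x axis holds probe sets that differed from control 1 but little from control 2.

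Genes were counted without the filter, by the probe set with the highest mean rank. Of 18194 genes 1516 (8.33%) ranked above both controls and 1184 (6.51%) below. Of the higher genes 648 had several probe sets; in 192 another one was also higher and in 40 another was lower. Of the lower genes 636 had several, with 91 and 56. Among the 14736 genes that passed the filter, 1313 (8.91%) ranked above both controls and 988 (6.7%) below. Unnamed transcripts were more frequent on the lower side, where 66.6% of probe sets carried a single gene name, against 92.6% on the higher side and 85.5% of all tested.

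The 12 genes with the largest upward gaps lay near the bottom of both controls and near the top of both shCaf1 arrays. Pwwp3b ranked at 1.6 and 1.9 in the controls and at 91.8 and 92.2 in shCaf1. Ccdc39, a coiled-coil protein that sets the spacing of dynein arms on the axoneme, ranked at 2.2 and 8.4 against 97.9 and 98.2. Slc16a1, a monocarboxylate transporter for lactate and pyruvate, ranked at 2.8 and 3.3 against 91.9 and 91.9. The globin-family gene Adgb, the chromatin protein gene Dek and the recombination ATPase gene Fignl1 behaved alike, with gaps of 86.4, 86.1 and 81.6 points. The remaining 6 were 4932414N04Rik, Tasor2, 1700093K21Rik, Hsfy2, A26c3 and Zbbx, with gaps from 81.6 to 88.2. In signal, the 12 genes read 6 to 56 on the control arrays and 1574 to 8353 in shCaf1, and limma gave each an adjusted p of 0.0708. These values are for the brightest probe set of each gene. The second Slc16a1 probe set went the other way, at 90.3 and 37.3 against 11.1 and 12.5, a gap of 24.8 points. The second probe sets of Fignl1 and Tasor2 also ranked below both controls, with gaps of 12.9 and 0.7 points.

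On the brightest probe set of each, the 12 genes with the largest downward gaps lay high on both controls and near the bottom of both shCaf1 arrays. Ajap1, a membrane protein of adherens junctions, ranked at 88.9 and 85.2 in the controls and at 1.8 and 5.9 in shCaf1. Amh, the anti-Müllerian hormone of immature Sertoli cells, ranked at 81.3 and 93.1 against 14.2 and 16.3. Siglec1, a sialic acid receptor of macrophages, ranked at 94.8 and 80.1 against 15.1 and 13.3. Podxl (a sialomucin of podocytes and endothelium), Synpo2 (an actin-binding protein of muscle), Bfsp2 (a lens filament protein), Nxph4 (a neurexin ligand) and the transcription factor gene Onecut2 had gaps of 69.9, 65.5, 64.7, 64.9 and 64.6 points. The glutathione transferase gene Gstp3 and 2610316D01Rik, Fam131c and AA619741 completed the group with gaps from 66.5 to 77.7. Their signals were 628 to 2229 on the controls and 2 to 20 in shCaf1, which is the dim end of those arrays, and the adjusted p was 0.0708 for each. Other probe sets gave mixed results. Another also ranked below both controls for 2610316D01Rik and for Ajap1, with gaps of 45.72 and 28.85 points. The remaining Ajap1 probe set did not separate the groups. No other probe set of Podxl, Siglec1, Onecut2 or Synpo2 reached 25 points in either direction.

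**Figure D3:**
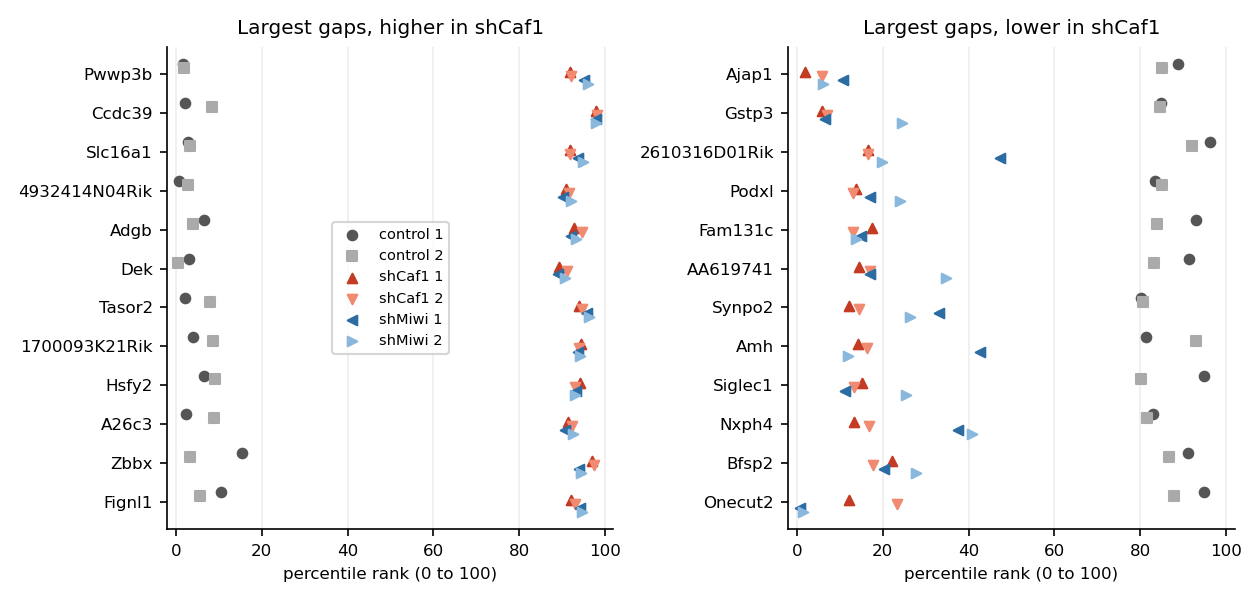
Percentile rank (x axis, 0 to 100) of the 12 genes with the largest gap upward (left) and downward (right), 1 symbol per array; circles and squares are the controls, red triangles shCaf1 and blue triangles shMiwi. The shMiwi arrays lay near shCaf1 for the higher genes, and spread from 0.8 to 47.4 for the lower ones.

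Genes of meiotic prophase held the largest share of higher-ranked members among the germ cell stages. Of 32 pachytene spermatocyte genes 11 (34.4%) ranked above both controls and none below, against 8.33% and 6.51% of all genes. Smc1b, the meiotic cohesin subunit, ranked at 37.7 and 19.2 in the controls and at 95.9 and 96.1 in shCaf1; Meiob, a single-strand DNA-binding recombination factor, at 28.7 and 4.2 against 87.6 and 88.3; and Brdt, a testis bromodomain protein, at 32.2 and 14.7 against 89.3 and 88.3. The synaptonemal complex genes Sycp2 (17.7 and 56.7, then 99.2 and 99.3) and Sycp3 (3.4 and 65.6, then 98.7 and 98.7) had gaps of 42.4 and 33.1 points. The medians of the list were 34.8 and 70.4 in the controls, 95.4 and 94.6 in shCaf1, and 95.8 and 95.5 in shMiwi. Of all probe sets at shCaf1 percentiles 80 to 90 and 90 to 100, 22.3% and 15.2% ranked above both controls, and 0.0% below. These are spermatocyte genes in cells labelled as elongating spermatids, and their ranks on the shCaf1 arrays were near those of the spermatid genes.

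Round spermatid genes followed, with 7 of 32 (21.9%) above both controls and none below, against 8.33% and 6.51% of all genes. Their medians were 97.6 and 97.5 in shCaf1 and 96.4 and 96.7 in shMiwi. All probe sets at percentile 90 to 100 in shCaf1 gave 15.2% above and 0.0% below. Dpy19l2, needed to anchor the acrosome, ranked at 12.6 and 36.7 in the controls and at 92.3 and 92.7 in shCaf1; Spata16, another acrosome gene, at 1.5 and 37.3 against 90.4 and 90.2; and the acrosomal Spaca7 at 36.9 and 49.9 against 97.2 and 98.2. Acrv1, an acrosomal vesicle protein, at 21.7 and 81.2 against 99.6 and 99.6, was far from control 1 and had a gap of 18.4 points. Of the 32 genes 23 ranked at least 25 points above control 1 and 8 above control 2. Of all 18194 genes the counts were 4507 and 2853.

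Elongating spermatid genes differed widely between the controls, and few differences held against both. Of 39 genes 26 ranked above control 1 and 2 above control 2. The same number, 2 (5.13%, against 8.33% of all genes), ranked above both. These were Hook1, a manchette linker protein, at 52.6 and 49.8 against 92.9 and 92.6, and the transcription factor gene Spz1, at 12.2 and 62.3 against 99.0 and 98.8. Tnp1, at 9.4 and 99.8 in the controls and 100 and 100 in shCaf1, and Akap4, the main fibrous sheath protein, at 28.8 and 93.6 against 99.3 and 99.4, show the split. Control 2 and shCaf1 had medians of 97.2, 98.6 and 98.4 over this list, and control 1 had 51.0. Prm1 ranked at 96.1, 99.9, 100 and 99.9, and Odf1, an outer dense fibre gene, at 66.4, 98.8, 99.7 and 99.7. These ranks lie at the ceiling in 3 of the 4 arrays, where a further increase could not be seen.

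**Figure D4:**
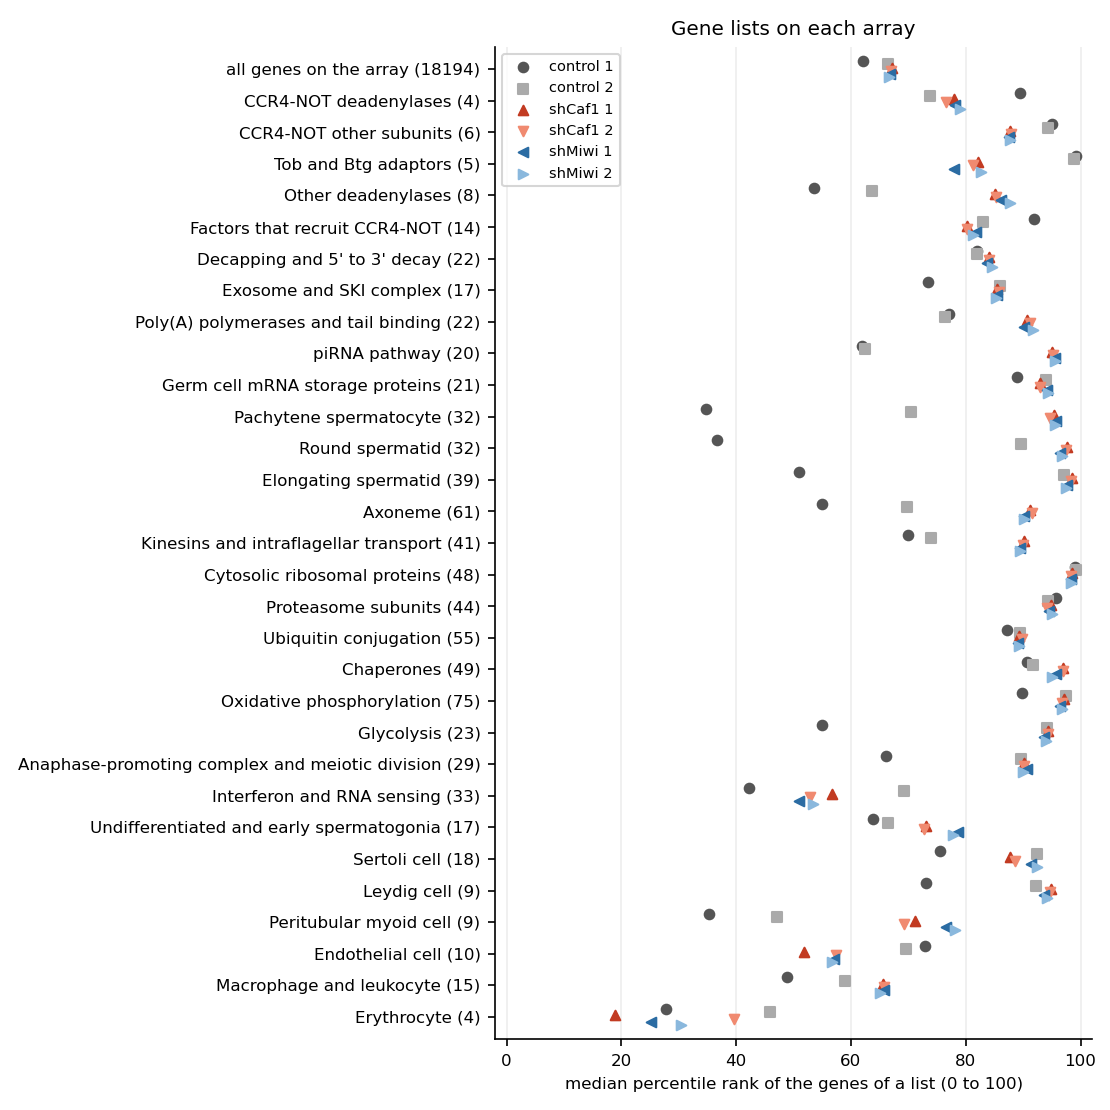
Median percentile rank of each gene list on each array (x axis, 0 to 100; the number of genes on the array in brackets); circles and squares are the controls, red triangles shCaf1 and blue triangles shMiwi. Control 1 lay at 51.0 for elongating spermatid genes where the other 5 arrays lay at 97.2 to 98.6. For the piRNA pathway both controls lay near 62, shCaf1 at 95.1 and 95.2, and shMiwi at 95.6 and 95.5.

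In the piRNA pathway, which silences transposons and cleaves mRNAs in the germ line, the shCaf1 medians lay above those of both controls. Of 20 genes 6 (30.0%) ranked above both controls and none below, against 8.33% and 6.51% of all genes. The medians of the list were 62.0 and 62.4 in the controls, where those of all genes were 62.1 and 66.5. They were 95.1 and 95.2 in shCaf1 and 95.6 and 95.5 in shMiwi. All probe sets at percentile 90 to 100 in shCaf1 gave 15.2% above and 0.0% below. Tdrd1, a tudor scaffold protein, ranked at 23.4 and 5.9 against 75.8 and 75.3; Pnldc1, the trimmer of piRNA 3′ ends, at 26.1 and 36.4 against 83.2 and 83.5; Mybl1, the transcription factor of pachytene piRNA clusters, at 30.2 and 49.6 against 86.2 and 86.4; and the helicase gene Mov10l1 at 66.5 and 61.2 against 96.8 and 96.7. Henmt1, which methylates piRNA 3′ ends, and Asz1 were the other two. Piwil1, which is Miwi, ranked at 100 and 100 in the controls and at 99.9 and 99.9 in shCaf1. Ddx4, at 0.3 and 74.3 against 98.2 and 98.7, Mael, at 3.4 and 89.9 against 98.7 and 98.7, and Piwil2, at 59.6 and 87.0 against 97.5 and 97.6, differed from control 1 by far more than from control 2.

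Of 21 germ cell mRNA storage proteins 2 (9.52%), Dazl and Rbm44, ranked above both controls, a share near the 8.33% of all genes, and none below. Dazl, which binds the 3′ ends of germ cell mRNAs and supports their translation, ranked at 24.5 and 12.4 in the controls and at 93.0 and 92.7 in shCaf1. Rbm44, a protein of intercellular bridges, ranked at 60.8 and 3.4 against 90.9 and 91.9.

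Of 61 axoneme genes of the sperm tail 16 (26.2%) ranked above both controls and 1 below, against 8.33% and 6.51% of all genes. The medians of this list and of the transport genes were 90 or more in shCaf1, and all probe sets gave shares of 22.3% from percentile 80 to 90 and 15.2% above it. On the shMiwi arrays the medians were 90.2 and 90.1 for this list and 89.4 and 89.4 for the transport genes. Besides Ccdc39, the nexin-dynein regulator gene Drc1 ranked at 9.4 and 29.9 in the controls and at 94.2 and 94.8 in shCaf1, and the central apparatus gene Spef2 at 10.8 and 31.7 against 87.0 and 87.8. The dynein heavy chain gene Dnah17 went the other way, at 92.5 and 69.7 against 21.6 and 25.1. Of 41 kinesin and intraflagellar transport genes 9 (22%) ranked above both controls and 1 below. Kif27 (30.8 and 32.9, then 92.5 and 92.8), Ttc30b (2.6 and 15.5, then 74.1 and 76.0) and Cluap1 (44.2 and 28.0, then 94.2 and 94.8) had the largest gaps. Kif3c (94.8 and 92.5, then 61.0 and 54.1) was the lower one, and its other probe set did not separate the groups.

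Housekeeping machinery gave shares nearer to or below the 8.33% of all genes. None of 75 oxidative phosphorylation genes lay beyond both controls; its brightest members Atp5g3 (100 and 100, then 99.2 and 99.0) and Cox5b (99.6 and 99.6, then 99.2 and 99.2) were at the ceiling everywhere. Of 44 proteasome genes 1, Psma3, ranked above both controls, of 48 ribosomal protein genes 2, Rps6 and Rpl14, of 23 glycolysis genes 1, the testis aldolase gene Aldoart1 (1.3 and 14.8, then 91.7 and 92.6), and of 29 genes of the anaphase-promoting complex and meiotic divisions 1, Ccnb3. Rps6 and Rpl14 did not pass the filter on the mean percentile, and the second Rps6 probe set did not separate the groups. Ubiquitin conjugation had 7 of 55 (12.7%), with Ube2u (18.9 and 3.5, then 96.2 and 96.5), Ube2e1 and the histone ubiquitin ligase gene Rnf8 at the largest gaps. The other Ube2e1 probe set ranked below both controls, at 76.0 and 66.0 against 27.1 and 48.3, a gap of 17.7 points. Chaperones had 7 of 49 (14.3%), with Dnajc9, Hsph1 and Dnajb11 at the largest gaps. On its brightest probe set no gene of these 7 lists ranked at least 25 points below both controls. Their shCaf1 medians were 89.2 or more, a level at which no probe set lay below both controls.

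Genes of interferon response and RNA sensing, which can react to double-stranded RNA, did not rank above both controls in any of 33 cases, and 3 (9.09%) ranked below, a share near the 6.51% of all genes; 8.33% of all genes ranked above. Oas1b, a 2′-5′ oligoadenylate synthetase family gene, ranked at 92.5 and 85.3 in the controls and at 39.8 and 46.6 in shCaf1, its relative Oas1a at 96.1 and 89.5 against 61.3 and 52.9, and the antiviral gene Rsad2 at 81.4 and 84.4 against 43.7 and 30.7. All 3 turned positive on the scale of the spiked controls.

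Markers of Sertoli and Leydig cells reached high ranks on the shCaf1 arrays and on control 2. The Leydig cell gene Cyp17a1, a steroidogenic enzyme, ranked at 52.4 and 93.5 in the controls and at 99.0 and 98.8 in shCaf1. Over 18 Sertoli cell genes the medians were 75.6 and 92.5 in the controls and 87.7 and 88.5 in shCaf1, with Amh below both controls and none above; over 9 Leydig cell genes they were 73.1 and 92.2 against 94.9 and 94.7, with none beyond both. Of 9 peritubular myoid genes 2 (22.2%) ranked above both, the smooth muscle genes Myh11 (28.4 and 14.8, then 69.9 and 69.2) and Tagln (25.2 and 11.6, then 63.2 and 65.8). Of 15 macrophage and leukocyte genes 3 ranked above, C1qa (19.8 and 30.3, then 81.8 and 79.2), Tyrobp and Fcer1g. Itgam, which did not pass the filter on the mean percentile, ranked below. Of 10 endothelial genes Egfl7 ranked below on its brightest probe set, and its other probe sets did not reach 25 points. Medians over the endothelial genes were 72.9 and 69.6 in the controls and 51.9 and 57.4 in shCaf1, over the macrophage and leukocyte genes 48.8 and 59.0 against 65.5 and 65.8, over the myoid genes 35.2 and 47.1 against 71.2 and 69.2, and over 4 erythrocyte genes 27.8 and 45.9 against 18.9 and 39.6. All genes on the array had medians of 62.1 and 66.5 against 67.1 and 67.0, and 8.33% of them ranked above both controls and 6.51% below. Of 17 genes of spermatogonia, Dmrt1 (22.9 and 14.7, then 85.8 and 85.0) ranked above both and Zbtb16 (94.6 and 85.8, then 31.1 and 46.9) below. Another Zbtb16 probe set ranked the other way, at 1.0 and 27.0 against 35.5 and 48.2, a gap of 8.4 points. Of 4 erythrocyte genes Alas2 ranked above. The part of these cells in the germ cell results was not tested.

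Promoters of the higher genes were compared with all promoters for motifs of testis transcription, since CREM activates spermatid genes through the cyclic AMP response element TGACGTCA. In windows from 250 bases before to 50 after the RefSeq start (GRCm38.p6), 1226 of the 1516 higher genes and 904 of the 1184 lower genes had a sequence, with both strands searched. The element occurred in 3.1% of the higher, 1.88% of the lower and 2.94% of all 14368 promoters, a share in the higher genes near that of all genes. The MYB-type motif TAACNG occurred in 25.2%, 23.2% and 23.3%, CCAAT in 43.7%, 40.8% and 42.0%, and TATAAA in 9.79%, 15.5% and 11.5%. The median number of CpG dinucleotides was 19 in the higher, 9 in the lower and 17 in all promoters. For display only elements before the start were considered, leaving out promoters on a single chromosome and genes with another probe set lower than both controls. Shown here for scale are 60-base stretches of the 3 higher genes with the largest gaps in that choice, picked after their values were seen, 5′ to 3′ on the gene's strand, with the element in capitals: chr11:52396368-52396427, chr10:34297361-34297420 and chr2:155381789-155381848, all on the plus strand.
9530068E07Rik: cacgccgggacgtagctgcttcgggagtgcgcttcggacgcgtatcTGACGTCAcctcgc
Tspyl4: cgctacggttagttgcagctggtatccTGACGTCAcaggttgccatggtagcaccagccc
Trp53inp2: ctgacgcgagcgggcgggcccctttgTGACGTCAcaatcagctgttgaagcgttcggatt
In the order listed, the genes ranked at 17.5 and 12.1, 11.2 and 5.3, and 16.2 and 22.9 in the controls, and at 91.4 and 92.3, 84.0 and 84.2, and 84.7 and 86.7 in shCaf1. A match of letters is a description of the window and not evidence of binding.

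The comparison with the shMiwi arrays takes no control array into its fit, although the filter that chose the tested probe sets used both controls. Without that filter 709 probe sets passed in place of 1100. The median standard error there was 2.19 percentile points, against 10.3 with the controls, and the median absolute difference was 2.47. In limma, with the filter, 1100 of the 28527 probe sets (3.86%) passed an adjusted p of 0.05, 597 (2.09%) higher and 503 (1.76%) lower in shCaf1 than in shMiwi. Among the probe sets that ranked above both controls, 83 (2.67%) were higher and 168 (5.4%) lower in shCaf1 than in shMiwi; among those that ranked below both controls, 10 (0.434%) and 3 (0.13%). The 2 comparisons share the shCaf1 arrays. The number that passed depended on single arrays: 48 passed without shCaf1 replicate 1, 17 without shCaf1 replicate 2 and 2444 without shMiwi replicate 1. With all 6 arrays fitted together limma passed 0, with 299 at an unadjusted p under 0.05, and without its intensity trend also 0, with 4690; at the setting used here 6143 had such a p.

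A few of the genes that differed between the 2 shRNAs, picked after their values were seen, show the sizes involved. Among genes above both controls, the collagen gene Col3a1 ranked at 86.6 and 86.6 in shCaf1 and at 96.7 and 95.9 in shMiwi, a difference of -9.7 ± 0.5 (SE) with an adjusted p of 0.00356 in limma. The basement membrane collagen gene Col4a4 ranked at 75.0 and 71.3 against 88.4 and 88.0, and the sterol synthesis gene Msmo1 at 76.9 and 76.4 against 83.3 and 85.9. Ubqlnl, a ubiquilin-family gene, ranked higher in shCaf1, at 93.8 and 93.7 against 82.7 and 83.2 (adjusted p = 0.00356), as did Satl1, at 89.6 and 89.4 against 78.6 and 78.2, and Eya4, at 85.4 and 86.0 against 74.3 and 75.2. Among genes below both controls, Klk1b27, a kallikrein gene, was lower in shCaf1, at 33.2 and 46.0 against 83.0 and 83.7, close to the controls at 78.2 and 78.8. Mecom, at 57.5 and 56.9 against 17.1 and 19.8, and Dus2, at 56.6 and 66.5 against 20.0 and 17.4, were higher in shCaf1 than in shMiwi and lower than both controls.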

How the data were processed

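The deposited table holds MAS5 signal intensity per probe set, on a linear scale, for 45101 probe sets; the tool is named in the submitters' processing notes, and the trimmed mean (2% cut at each end) of every array is 500 in the deposited values. Detection calls were not used here. For this report the 64 AFFX probe sets were dropped, and intensities were turned into percentile ranks within each array. limma 3.58.1 (R 4.3.3, eBayes with an intensity trend, two-sided, Benjamini-Hochberg) was fitted to the ranks of 28527 probe sets. The code was also run on simulated arrays drawn around the shCaf1 mean with equal spread. These controls spread far more, so that run does not show how the fit behaves on these data. Log2 alternatives added 16 to the signal. Promoters and names came from RefSeq; 99.4% of probe sets naming 1 gene matched by gene identifier, and names derive from the platform annotation. Genes were named by a rule: Cnot7 and Cnot8, the 12 largest gaps per direction, and up to 3 members per list and direction, or the 2 brightest where a list had none; a few others are named as examples and were chosen after their values were seen. The gene lists and members were chosen with earlier results of these data known. The labels do not say whether same-numbered arrays belong together, and the main fits did not pair them. Deviations of same-numbered arrays correlated over probe sets at 0.013 (control and shCaf1) and 0.08 (shCaf1 and shMiwi), which does not settle the question.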

Additional observations from a re-analysis of the deposited data

Results flagged for a closer look

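Several named genes differed between the shCaf1 and the shMiwi arrays by limma's test of that difference (adjusted p under 0.05), and are given as shCaf1 minus shMiwi in percentile points. Kif27, of the kinesin and transport list, differed by 4.0, Akap4 and Spz1, of the elongating spermatid list, by 1.3 and 1.4, and Zbbx, named for its gap alone, by 3.0. In metabolism and ubiquitin conjugation Aldoart1 differed by 4.9 and Ube2u by 2.8, and the prostaglandin D synthase gene Ptgds by 5.6. The genes ranked lower in shCaf1 than in shMiwi were Mybl1 at -4.7, Pwwp3b at -3.6, Rc3h2 at -3.4, Msmo1 at -7.9, Col3a1 at -9.7, Col4a4 at -15.1 and Klk1b27 at -43.8. Larger positive differences belonged to Ubqlnl at 10.8, Eya4 at 10.9, Satl1 at 11.1, Mecom at 38.8 and Dus2 at 42.8. None of these passed the test when all 6 arrays were fitted together or when the intensity trend was left out, settings in which 0 probe sets passed, with 299 and 4690 at an unadjusted p under 0.05 in limma.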

How the results depend on the processing

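The count of 0 probe sets called by limma against control became 7495 with all 6 arrays in the fit, 7307 on deposited log2 signals, 22731 on the scale of the spiked controls (22727 of them higher), and 0 to 22681 when 1 array was left out; with the replicate number as a block it was 0. The 5413 probe sets beyond both controls became 11660 at a gap of 10 points, 1915 at 40, 1821 with a filter at percentile 60, 3018 when 1 probe set per gene was ranked, and 6274 to 13795 when 1 array was left out. Cnot7 kept its direction under every alternative run: -4.52 points with all 6 arrays (adjusted p = 0.0188), -7.27 on deposited log2 signals (0.0351), -2.28 on the scale of the spiked controls (0.329), and -4.89 to -4.15 without 1 array. The adjusted p was 0.00244 without control 1, 0.00503 without control 2, 0.582 and 0.499 without shCaf1 replicate 1 and 2, 0.518 without the trend and 0.166 with the replicate block; without an array the spread comes from the other group alone, and the lone array is assumed to vary like it. The 1100 probe sets called against shMiwi became 0 with all 6 arrays or without the intensity trend, 1864 on log2 signals, 709 with no filter, 30 at an adjusted p of 0.01, 3241 with the replicate block and 17 to 2444 without 1 array. Genes that changed direction on the scale of the spiked controls (log2) were Btg1 2.78, Cnot2 0.05, Cnot3 1.61, Cnot4 1.19, Cnot6 1.85, Cnot6l 3.01, Cox5b 3.25, Egfl7 1.03, Kif3c 0.8, Oas1a 0.93, Oas1b 0.4, Patl2 0.41, Piwil1 0.12, Rc3h2 2.41, Rsad2 0.34, Tnrc6a 2.41, Tob1 2.01 and Zbtb16 0.11; Cnot6l also did without control 1 (14.45 points, against -20.27 without control 2). The Sertoli list without control 2 had 9 genes beyond control 1, 6 of them higher. The cause of these shifts was not tested.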
